A study of Mus musculus with 9 samples.

Results

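Activated macrophages make nitric oxide, itaconate and superoxide as antimicrobial and signalling molecules, and 9 genes that make, feed or detoxify these products were followed here. They are Nos2, Irg1, Cybb, Cyba, Ncf1, Ncf4, Sod2, Slc7a2 and Ass1, chosen by symbol, and all 9 were among the 29763 named genes of the table (Irg1 is the older symbol of Acod1). Polyadenylated RNA had been sequenced from bone marrow-derived macrophages, primary cells grown from mouse marrow for 7 days in medium with 30% L929 supernatant, which supplies the growth factor CSF1. The genotypes were a knockout of Ndufa4l3-miR147 (also named Nmes1, listed as AA467197), a knockout of Ndufa4 and wild type, with 3 libraries each. All 9 libraries came from cells given interferon-gamma at 40 ng/ml for 12 h, so the values compare genotypes in stimulated cells and say nothing of the response to interferon itself. The labels call the replicates technical and give no age or strain of the mice. The p-values therefore measure only the spread between libraries.

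Nos2 encodes the inducible nitric oxide synthase, which turns arginine into nitric oxide and citrulline. Slc7a2 brings arginine into the cell, and Ass1 catalyses a step by which citrulline is turned back into arginine. Irg1 encodes the mitochondrial decarboxylase that makes itaconate from cis-aconitate, and itaconate inhibits succinate dehydrogenase of the respiratory chain. Cybb and Cyba encode the membrane subunits of the phagocyte NADPH oxidase, which passes electrons to oxygen to form superoxide, and Ncf1 and Ncf4 encode cytosolic subunits that join them on activation. Sod2 is the manganese superoxide dismutase of the mitochondrial matrix. Ndufa4 encodes a small protein of respiratory complex IV, and Ndufa4l3 encodes a relative of it.

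Promoters are given for 4 of the genes. Irg1 and Ass1 are shown because they were the members that passed the test in the Ndufa4 knockout, and Cybb and Ncf1 because their promoters held a GAAA pair, a pattern known from interferon response elements. Each sequence runs from 250 bases before to 50 bases after the RefSeq start in GRCm38.p6, and capitals mark matches, on either strand, to the motifs searched. These were an NF-kB pattern (GGGA, then NTN, then TCC), TTCNNNGAA, a GAAA pair (GAAA, any 2 bases, GAAA) and GAGGAA, letter patterns known from sites of NF-kB, interferon regulatory and ETS factors among others.
Irg1 promoter, chr14:103046762-103047061, plus strand: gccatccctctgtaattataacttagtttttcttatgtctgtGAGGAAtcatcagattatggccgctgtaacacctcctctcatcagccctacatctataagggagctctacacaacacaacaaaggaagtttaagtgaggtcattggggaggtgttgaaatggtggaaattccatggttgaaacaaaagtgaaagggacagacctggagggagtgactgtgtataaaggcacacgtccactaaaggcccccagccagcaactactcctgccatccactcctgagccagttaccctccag
Ass1 promoter, chr2:31470020-31470319, plus strand: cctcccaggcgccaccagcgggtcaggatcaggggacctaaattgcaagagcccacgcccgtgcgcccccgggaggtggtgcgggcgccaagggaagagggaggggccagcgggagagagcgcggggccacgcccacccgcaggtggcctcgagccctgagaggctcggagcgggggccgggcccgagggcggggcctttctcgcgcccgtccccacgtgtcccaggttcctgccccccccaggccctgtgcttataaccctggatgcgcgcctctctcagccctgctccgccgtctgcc
Cybb promoter, chrX:9469275-9469574, minus strand: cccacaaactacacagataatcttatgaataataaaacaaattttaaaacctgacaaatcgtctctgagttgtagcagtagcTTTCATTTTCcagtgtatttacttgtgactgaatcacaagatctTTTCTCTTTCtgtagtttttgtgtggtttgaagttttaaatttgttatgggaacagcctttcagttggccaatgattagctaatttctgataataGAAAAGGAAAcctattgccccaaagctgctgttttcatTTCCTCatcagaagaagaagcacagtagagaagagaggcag
Ncf1 promoter, chr5:134229576-134229875, minus strand: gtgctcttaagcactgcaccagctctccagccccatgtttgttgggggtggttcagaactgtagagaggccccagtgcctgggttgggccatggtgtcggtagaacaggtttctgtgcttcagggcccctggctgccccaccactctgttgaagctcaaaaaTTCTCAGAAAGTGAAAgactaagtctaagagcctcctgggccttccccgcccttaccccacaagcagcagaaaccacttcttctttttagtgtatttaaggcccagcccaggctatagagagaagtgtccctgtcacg
The Cybb window held the GAAA pair at 3 places, which began 168, 124 and 29 bases before the start, and GAGGAA once after it. In the Ncf1 window TTCNNNGAA and the GAAA pair each occurred once and overlapped, from 88 to 73 bases before the start. The Irg1 window held GAGGAA alone, and the Ass1 window held none of the 4 motifs. Of the windows searched but not shown, that of Cyba held none and that of Sod2 held TTCNNNGAA and GAGGAA. Of 32851 promoters of the same length, 1.18% held the NF-kB pattern, 8.30% TTCNNNGAA, 3.44% the GAAA pair and 28.3% GAGGAA. Cybb and Ncf1 were picked for the GAAA pair, so its share among all promoters is no test of them. A match describes letters in this window and is not a measured site.

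Abundance was read as TPM, transcript abundance scaled to a fixed total, which is corrected for transcript length and so allows levels of different genes to be compared. In wild type Cyba was the most abundant member, at 1898 ± 42.1 TPM (SD, n = 3, as for all means here), above 99.5% of the 11133 genes tested. Ncf1 followed at 321 ± 3.05 TPM and Cybb at 311 ± 16.1 TPM, with overlapping libraries. Irg1 at 138 ± 8.82 TPM and Ncf4 at 134 ± 7.25 TPM also overlapped, and Ass1 lay below both at 109 ± 4.14 TPM. Sod2 at 10.4 ± 0.555 TPM, Slc7a2 at 5.99 ± 0.493 TPM and Nos2 at 3.16 ± 1.04 TPM were far lower. Nos2 exceeded only 14.6% of the genes tested, so the synthase itself was among the scarcer transcripts in these cells while the oxidase subunits were among the abundant ones.

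The targeted transcript AA467197 averaged 3.21 ± 1.18 TPM in the Ndufa4l3-miR147 knockout, 506 ± 29.6 TPM in the Ndufa4 knockout and 359.5 ± 5.24 TPM in wild type, while Ndufa4 was listed below 1 TPM in every library, wild type included, and at 0 in each Ndufa4 knockout library, and so checks nothing about its label. The 8 macrophage markers were all present and summed to 8826 to 9019 TPM in the Ndufa4l3-miR147 knockout, 9757 to 10219.8 TPM in the Ndufa4 knockout and 9236 to 9371 TPM in wild type. Lyz2, lysozyme, made up the largest portion of each mean, with 4094 TPM in the Ndufa4l3-miR147 knockout, 5414 TPM in the Ndufa4 knockout and 4585 TPM in wild type. Lyz2 rose 1.18-fold in the Ndufa4 knockout (limma adjusted p = 0.011), while Cd14 fell to 0.559-fold (limma adjusted p = 0.00033) and Mertk to 0.704-fold (limma adjusted p = 0.049) of wild type, so the sum hides markers that moved the other way. The other 5 macrophage markers were not called there, and in the Ndufa4l3-miR147 knockout limma called 0 of the 8, with 2 at an unadjusted p under 0.05. Of all genes limma called 0.431% in the Ndufa4l3-miR147 knockout and 8.59% in the Ndufa4 knockout against wild type. With so few genes called in the first, 0 of 8 does not show that the markers were unchanged. Neutrophil markers, 6 of 10 of them above the filter, summed to 39.4 to 76.8 TPM, 1.80 to 40.1 TPM and 4.35 to 83.2 TPM in the same order of genotypes, and fibroblast markers, 4 of 6 above it, to 37.0 to 45.5 TPM, 6.42 to 131 TPM and 7.36 to 44.7 TPM. Dendritic cell markers, 2 of 7 above it, summed to 30.1 to 35.4 TPM, 40.9 to 76.7 TPM and 27.9 to 29.8 TPM, mostly from Clec9a. Markers of lymphocytes and NK cells and of basophils and mast cells stayed below 1 TPM in sum, and no marker was at 0 in all libraries. Ndufa4 knockout replicate 3 stood apart: the longer a transcript, the lower its value there relative to replicates 1 and 2, with a Spearman rho of -0.535 over 11059 genes (not independent of each other).

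**Figure D1:**
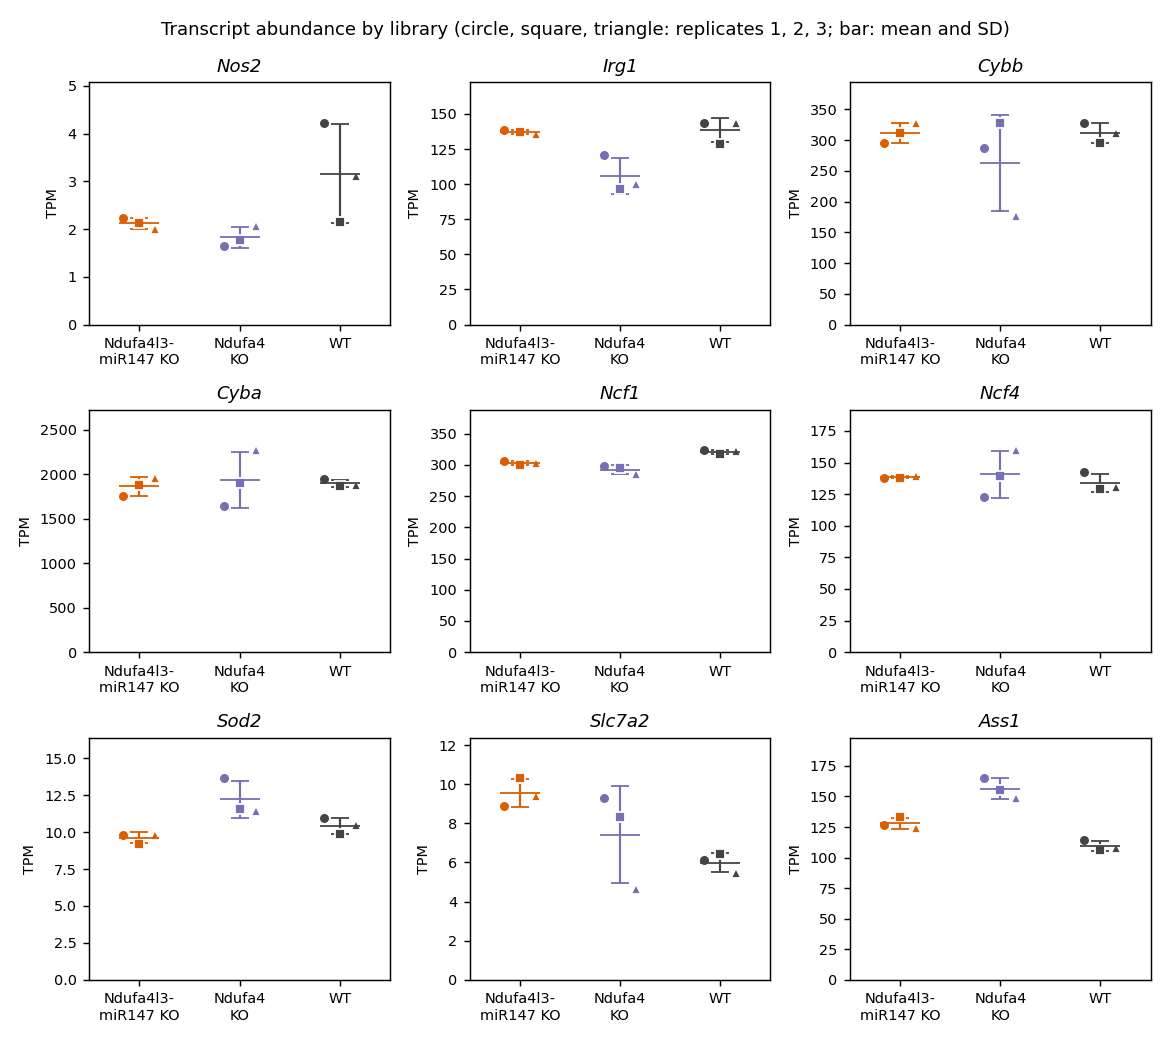
TPM (linear axes from 0) of the 9 genes in every library, with the mean and SD of each genotype (n = 3). Ass1 lay higher in both knockouts than in wild type without overlap, Irg1 lay lower in the Ndufa4 knockout, and Cybb and Slc7a2 were lowest in Ndufa4 knockout replicate 3, at 176 and 4.62 TPM.

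In the Ndufa4 knockout 2 of the 9 genes passed the test against wild type, 1 in each direction: Ass1 rose and Irg1 fell. The test was limma on log2(TPM + 1) over all 9 libraries, and calls needed an adjusted p under 0.05 (Benjamini-Hochberg, 11133 genes). By that rule 8.59% of all genes were called, 2.83% higher and 5.76% lower (315 and 641 genes, against 492 and 442 with median-of-ratios scaling). In the Ndufa4l3-miR147 knockout 0 of the 9 passed limma's test, against 0.431% of all genes called (0.243% higher, 0.189% lower). There 2 members (Slc7a2 and Ass1) had an unadjusted p under 0.05. For that looser threshold no share of all genes was computed, here or for the lists below. The median log2 fold change of the 9 was 0.02 in the Ndufa4 knockout and -0.01 in the Ndufa4l3-miR147 knockout, against -0.08 and 0.0012 over all genes. Both comparisons share the wild-type libraries. In bulk RNA a difference in the share of cells that express a gene cannot be told apart from a difference in RNA per cell.

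**Figure D2:**
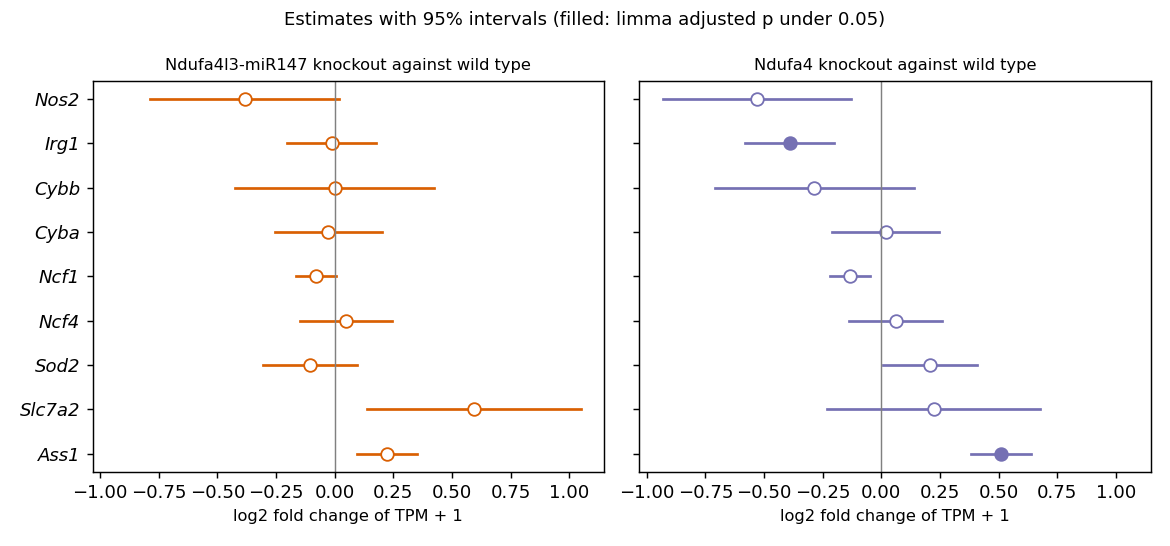
Log2 fold changes of TPM + 1 with 95% intervals from limma for each knockout against wild type, filled where the adjusted p was under 0.05. Ass1 at 0.51 and Irg1 at -0.39 in the Ndufa4 knockout are the filled points, and the widest intervals are those of Slc7a2 and Cybb.

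Ass1, the arginine-recycling enzyme (ENSMUSG00000076441.9, protein coding, GRCm38 chromosome 2, 31470207 to 31520672, plus strand), measured 127, 133 and 124 TPM in Ndufa4l3-miR147 knockout libraries, 165, 156 and 148 TPM in the Ndufa4 knockout, and 114, 106 and 108 TPM in wild type. The 3 genotypes did not overlap, with the Ndufa4 knockout highest and wild type lowest. In the Ndufa4 knockout Ass1 rose by 0.51 ± 0.06 on the log2 scale (SE; limma adjusted p = 0.0016), a 1.42-fold difference with a 95% interval of 1.30 to 1.56. In the Ndufa4l3-miR147 knockout the difference was 0.22 ± 0.06 (limma adjusted p = 0.20; 95% interval of the fold 1.07 to 1.28). This difference passed the test in 2 of 20 alternatives, among them a fit to only the 6 libraries compared (limma adjusted p = 0.0401). In the other 18 limma's adjusted p reached 0.667. Asl, which acts after Ass1 on the way to arginine, was at 47.9 to 51.4 TPM in the Ndufa4l3-miR147 knockout, 44.2 to 51.5 TPM in the Ndufa4 knockout and 51.2 to 53.8 TPM in wild type. The ratio of Ass1 to Asl within a library was 2.41 to 2.69, 2.88 to 3.74 and 2.07 to 2.12 in these genotypes.

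Slc7a2, the arginine importer (ENSMUSG00000031596.15, protein coding, GRCm38 chromosome 8, 40862396 to 40922308, plus strand), measured 8.90, 10.3 and 9.41 TPM in Ndufa4l3-miR147 knockout libraries, 9.31, 8.34 and 4.62 TPM in the Ndufa4 knockout, and 6.12, 6.41 and 5.45 TPM in wild type. The Ndufa4l3-miR147 knockout lay above wild type without overlap, and so did replicates 1 and 2 of the Ndufa4 knockout, while its replicate 3 lay below every other library. The difference from wild type was 0.59 ± 0.20 in the Ndufa4l3-miR147 knockout (limma adjusted p = 0.42; 95% interval of the fold 1.10 to 2.07) and 0.22 ± 0.20 in the Ndufa4 knockout (limma adjusted p = 0.51; 0.851 to 1.60). Without Ndufa4 knockout replicate 3 both passed, at 0.59 (limma adjusted p = 0.0159) and 0.49 (limma adjusted p = 0.014). Slc7a2 has the longest transcript of the 9, at 7910 bases, and after removal of trends with length and GC the differences were 0.57 and 0.44 (limma adjusted p = 0.035 and 0.021). Slc7a1, another arginine transporter, was at 18.5 to 19.0 TPM in the Ndufa4l3-miR147 knockout, 13.5 to 21.2 TPM in the Ndufa4 knockout and 15.7 to 16.8 TPM in wild type.

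Nos2, the nitric oxide synthase (ENSMUSG00000020826.8, protein coding, GRCm38 chromosome 11, 78920787 to 78960254, plus strand), measured 2.23, 2.13 and 2.01 TPM in Ndufa4l3-miR147 knockout libraries, 1.65, 1.77 and 2.07 TPM in the Ndufa4 knockout, and 4.23, 2.14 and 3.11 TPM in wild type. Wild type had the widest spread, and its lowest library lay within the Ndufa4l3-miR147 knockout and just above the Ndufa4 knockout. The differences from wild type were -0.38 ± 0.18 in the Ndufa4l3-miR147 knockout (limma adjusted p = 0.63) and -0.53 ± 0.18 in the Ndufa4 knockout (limma adjusted p = 0.10), neither of which passed. At these levels the added 1 TPM understates the change, and the 95% intervals of the fold ran from 0.580 to 1.01 and from 0.524 to 0.914. The Ndufa4 knockout difference passed in 1 of 19 alternatives, and in the other 18 limma's adjusted p reached 0.271. The 1 was limma's array weights, which give outlying libraries less influence, at -0.51 (limma adjusted p = 0.047). That setting called 3045 genes in all in this comparison, against 956 in the main fit.

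The genes around nitric oxide and arginine were also read as a list of 13, of which 11 were abundant enough to test. In the Ndufa4 knockout 2 rose (Ass1 and Odc1) and 0 fell, with a median of -0.09. In the Ndufa4l3-miR147 knockout 1 rose (Odc1) and 0 fell, with a median of 0.10. The shares of all genes called, 8.59% and 0.431% in these comparisons, belong beside the counts of this and each later list. Odc1, ornithine decarboxylase, which commits arginine-derived ornithine to polyamines, was at 82.2, 81.4 and 84.5 TPM in Ndufa4l3-miR147 knockout libraries, 96.5, 94.9 and 93.9 TPM in the Ndufa4 knockout, and 65.4, 68.0 and 69.5 TPM in wild type. As with Ass1, the 3 genotypes were separate and in the same order. Odc1 rose by 0.29 ± 0.05 in the Ndufa4l3-miR147 knockout (limma adjusted p = 0.038) and by 0.49 ± 0.05 in the Ndufa4 knockout (limma adjusted p = 9.3e-04). The first of these calls was lost in 10 of 20 alternatives, among them leaving out any 1 library of the genotypes compared or Ndufa4 knockout replicate 2, where limma's adjusted p reached 0.261, and the second in 0 of 20. Of the 7 genes that make or renew tetrahydrobiopterin, the cofactor of the synthase, 6 were tested and limma called 0 in either knockout, each with 1 gene at an unadjusted p under 0.05. Its most abundant genes were Qdpr, which regenerates the cofactor, at 80.7 ± 0.454, 87.2 ± 1.48 and 89.8 ± 1.87 TPM across the Ndufa4l3-miR147 knockout, the Ndufa4 knockout and wild type, and Spr, which completes its synthesis, at 76.5 ± 8.04, 78.4 ± 9.50 and 79.7 ± 1.70 TPM.

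Irg1, the itaconate-forming enzyme (annotated as Acod1, ENSMUSG00000022126.6, protein coding, GRCm38 chromosome 14, 103046977 to 103056573, plus strand), measured 138, 137 and 136 TPM in Ndufa4l3-miR147 knockout libraries, 121, 96.5 and 100.3 TPM in the Ndufa4 knockout, and 144, 128 and 143 TPM in wild type. All libraries of the Ndufa4 knockout lay below all others, and the Ndufa4l3-miR147 knockout lay within the range of wild type. Irg1 fell by 0.39 on the log2 scale (SE 0.08) in the Ndufa4 knockout (limma adjusted p = 0.025), to 0.763-fold of wild type with a 95% interval of 0.669 to 0.870. In the Ndufa4l3-miR147 knockout the difference was -0.01 ± 0.08 (limma adjusted p = 1.0; interval of the fold 0.869 to 1.13). The call in the Ndufa4 knockout was lost without any 1 wild-type library (limma adjusted p of 0.0514 to 0.102), without Ndufa4 knockout replicate 2 (0.0514), with no filter on low values (0.0558) and in a fit to the 6 libraries compared (0.0936). Of the 2 dendritic cell markers tested, Clec9a rose 1.97-fold in the Ndufa4 knockout (limma adjusted p = 0.017) and Xcr1 was not called (0.39). Lyz2 was higher and Cd14 and Mertk lower there, as given above. The part of these markers in the changes of Irg1 and Ass1 was not tested.

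Of the 13 genes of itaconate, citrate and succinate metabolism, all of them tested, Irg1 alone was called in the Ndufa4 knockout. There 5 of the 13 had an unadjusted p under 0.05. In the Ndufa4l3-miR147 knockout limma called 0, and 0 had an unadjusted p under 0.05. Their median difference was -0.07 in the Ndufa4 knockout and -0.01 in the Ndufa4l3-miR147 knockout. Sdha, a subunit of succinate dehydrogenase, had the widest spread in this list and does not stand for the rest. The SE of its difference was 0.18, and the next largest was 0.09, for Suclg2, a subunit of succinyl-CoA ligase. Sdha was at 244 to 289.6 TPM in the Ndufa4l3-miR147 knockout, 181 to 312 TPM in the Ndufa4 knockout and 241 to 287 TPM in wild type.

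Of the 4 oxidase subunits among the members, 0 passed limma's test in either knockout, with 1 (Ncf1) at an unadjusted p under 0.05 in the Ndufa4 knockout. Of all genes 8.59% were called in the Ndufa4 knockout and 0.431% in the Ndufa4l3-miR147 knockout. At these shares 0 of 4 does not show that the subunits were unchanged. Ncf1, the organizing cytosolic subunit (ENSMUSG00000015950.13, protein coding, GRCm38 chromosome 5, 134220053 to 134229625, minus strand), measured 307, 300.3 and 303 TPM in Ndufa4l3-miR147 knockout libraries, 298, 295 and 285 TPM in the Ndufa4 knockout, and 323, 317 and 322 TPM in wild type. The genotypes did not overlap, with wild type highest and the Ndufa4 knockout lowest, yet the whole range was narrow. The differences were -0.08 ± 0.04 in the Ndufa4l3-miR147 knockout (limma adjusted p = 0.64; 95% interval -0.17 to 0.0049) and -0.13 ± 0.04 in the Ndufa4 knockout (limma adjusted p = 0.063; -0.22 to -0.05). The Ndufa4 knockout difference passed in 5 of 20 alternatives, among them without its replicate 1 (limma adjusted p = 0.0459) and without its replicate 3 (0.0408). It did not pass in the other 15, where limma's adjusted p reached 0.432. Over the alternatives the estimate ran from -0.1466 to -0.059. With trends in length and GC removed it was -0.07 (limma adjusted p = 0.12). Neutrophils also express Ncf1, and the part of the neutrophil markers given above in its values was not tested.

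Cybb, the catalytic subunit (ENSMUSG00000015340.10, protein coding, GRCm38 chromosome X, 9435252 to 9487771, minus strand), measured 294, 312 and 328 TPM in Ndufa4l3-miR147 knockout libraries, 287, 327 and 176 TPM in the Ndufa4 knockout, and 327, 295 and 311 TPM in wild type. The libraries overlapped in both comparisons, and Ndufa4 knockout replicate 3 alone lay outside the range of 287 to 328 TPM that held the other 8. The differences were 0.00 ± 0.19 in the Ndufa4l3-miR147 knockout (limma adjusted p = 1.0; 95% interval of the fold 0.746 to 1.34) and -0.29 ± 0.19 in the Ndufa4 knockout (limma adjusted p = 0.36; 0.611 to 1.10). Without Ndufa4 knockout replicate 3 the second was -0.02 (limma adjusted p = 0.86).

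Cyba, its membrane partner (ENSMUSG00000006519.11, protein coding, GRCm38 chromosome 8, 122424776 to 122432930, minus strand), measured 1752, 1884 and 1958 TPM in Ndufa4l3-miR147 knockout libraries, 1641, 1908 and 2271 TPM in the Ndufa4 knockout, and 1946, 1867 and 1881 TPM in wild type. Here replicate 3 of the Ndufa4 knockout was the highest library and replicate 1 the lowest. The differences were -0.03 ± 0.10 in the Ndufa4l3-miR147 knockout (limma adjusted p = 1.0; 95% interval of the fold 0.838 to 1.15) and 0.02 ± 0.10 in the Ndufa4 knockout (limma adjusted p = 0.92; 0.865 to 1.19), and the sign of the second turned to -0.10 without Ndufa4 knockout replicate 3. The ratio of Cyba to Cybb was 5.95, 6.04 and 5.97 in the Ndufa4l3-miR147 knockout, 5.72, 5.84 and 12.9 in the Ndufa4 knockout, and 5.94, 6.33 and 6.04 in wild type. The 8 libraries other than Ndufa4 knockout replicate 3 thus held both subunits in nearly the same proportion.

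Ncf4, the remaining cytosolic subunit among the members (ENSMUSG00000071715.12, protein coding, GRCm38 chromosome 15, 78244801 to 78262580, plus strand), measured 138, 138 and 139.7 TPM in Ndufa4l3-miR147 knockout libraries, 123, 139 and 159.7 TPM in the Ndufa4 knockout, and 142, 129 and 131 TPM in wild type. The libraries overlapped throughout, and the Ndufa4 knockout had both the lowest and the highest value. The differences were 0.05 ± 0.09 in the Ndufa4l3-miR147 knockout (limma adjusted p = 1.0; 95% interval -0.15 to 0.24) and 0.06 ± 0.09 in the Ndufa4 knockout (limma adjusted p = 0.69; -0.14 to 0.26).

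The deviation of Ndufa4 knockout replicate 3 from the mean of replicates 1 and 2 ran with transcript length within the oxidase. It was 0.36 for Cyba, with a transcript of 744 bases, and 0.29 for Ncf4, with 1464 bases. It was -0.06 for Ncf1, with 2882 bases, and -0.79 for Cybb, with 4752 bases. Among the other members Slc7a2, with 7910 bases, deviated by -0.80, whereas Nos2, with 4192 bases, deviated by 0.18 and Sod2, with 5861 bases, by -0.13. These lengths are those of the longest protein-coding GENCODE transcript and may not be the isoform present.

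**Figure D3:**
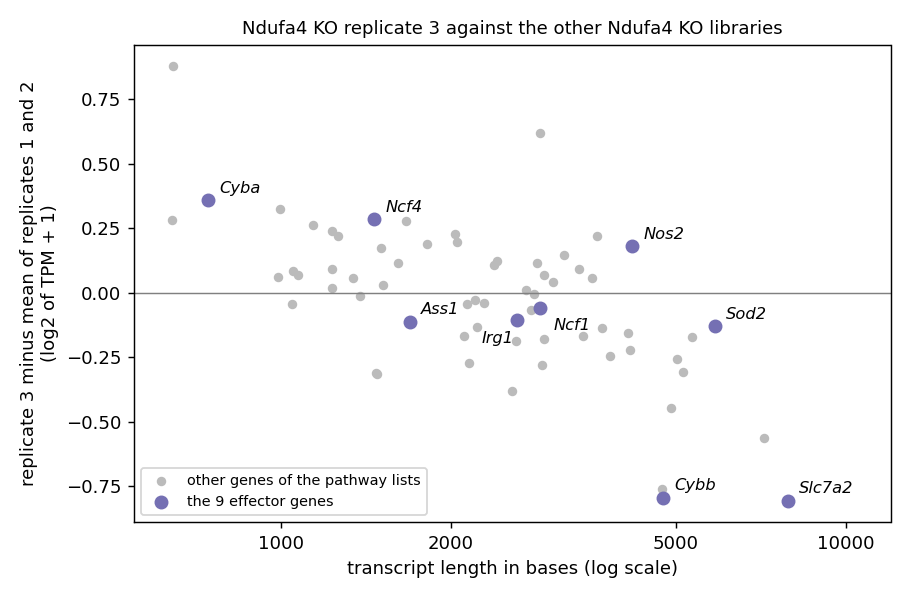
Deviation of Ndufa4 knockout replicate 3 from the mean of replicates 1 and 2 (log2 of TPM + 1) against transcript length in bases (log axis), for the 9 genes and the other tested genes of the pathway lists. Cyba lies high at 0.36, and Cybb and Slc7a2 lie low at -0.79 and -0.80.

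The list of 14 oxidase genes found, 9 of them tested, held 2 that fell in the Ndufa4 knockout and 0 that rose, neither a member. Of all genes 5.76% fell and 2.83% rose there. Hvcn1, the proton channel that balances the charge moved by the oxidase, was at 35.9, 33.5 and 37.1 TPM in Ndufa4l3-miR147 knockout libraries, 33.0, 29.9 and 31.3 TPM in the Ndufa4 knockout, and 41.2, 43.5 and 40.0 TPM in wild type. Both knockouts lay below wild type without overlap. In the Ndufa4 knockout Hvcn1 fell by 0.40 on the log2 scale (SE 0.07; limma adjusted p = 0.0094), and the call was lost without wild-type replicate 2 (0.0544). In the Ndufa4l3-miR147 knockout its difference was -0.22 ± 0.07 (limma adjusted p = 0.31). Rac2, the small GTPase that activates the oxidase in blood phagocytes, averaged 115 ± 2.92, 112 ± 4.50 and 131 ± 3.32 TPM in the Ndufa4l3-miR147 knockout, the Ndufa4 knockout and wild type. It fell by 0.22 in the Ndufa4 knockout (SE 0.05; limma adjusted p = 0.028), a call lost in 12 of 20 alternatives, among them scaling by median of ratios (adjusted p = 0.19 in limma) and leaving out any 1 library other than Ndufa4 knockout replicates 1 and 3. Its difference in the Ndufa4l3-miR147 knockout was -0.18 ± 0.05 (limma adjusted p = 0.24), and limma called 0 of the list there, with 2 at an unadjusted p under 0.05. The median of the list was -0.13 in the Ndufa4 knockout and -0.02 in the Ndufa4l3-miR147 knockout.

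Sod2, the mitochondrial dismutase (ENSMUSG00000006818.5, protein coding, GRCm38 chromosome 17, 13006846 to 13040063, plus strand), measured 9.83, 9.17 and 9.83 TPM in Ndufa4l3-miR147 knockout libraries, 13.7, 11.6 and 11.4 TPM in the Ndufa4 knockout, and 11.0, 9.85 and 10.5 TPM in wild type. The Ndufa4 knockout lay above wild type and the Ndufa4l3-miR147 knockout just below it, both without overlap. The differences were -0.11 ± 0.09 in the Ndufa4l3-miR147 knockout (limma adjusted p = 0.93; 95% interval of the fold 0.809 to 1.07) and 0.21 ± 0.09 in the Ndufa4 knockout (limma adjusted p = 0.18; 1.01 to 1.33). The Ndufa4 knockout difference passed in 2 of 20 alternatives, and in the other 18 limma's adjusted p reached 0.401. The 2 were quantile normalization, at 0.33 (limma adjusted p = 0.0431), and trends in length and GC removed, at 0.39 (0.0499).

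Of 16 genes that remove superoxide and peroxide, 15 were tested. In the Ndufa4 knockout 2 rose (Prdx5 and Txn1) and 1 fell (Prdx4), with a median of 0.07. Of all genes 2.83% rose and 5.76% fell there. In the Ndufa4l3-miR147 knockout limma called 0, with 1 at an unadjusted p under 0.05 and a median of -0.01. Prdx5, a peroxiredoxin found in mitochondria among other places, was at 321, 346 and 329 TPM in Ndufa4l3-miR147 knockout libraries, 396, 447 and 489.7 TPM in the Ndufa4 knockout, and 336, 329 and 320.0 TPM in wild type. The Ndufa4 knockout lay above both other genotypes, which overlapped, and Prdx5 rose there by 0.43 ± 0.07 (limma adjusted p = 0.011). That call was lost without wild-type replicate 2 or 3 and in a fit to the 6 libraries compared (limma adjusted p of up to 0.0541). Txn1, the cytosolic thioredoxin, averaged 997 ± 14.5, 1204 ± 43.5 and 983 ± 9.09 TPM in the Ndufa4l3-miR147 knockout, the Ndufa4 knockout and wild type, and rose by 0.29 ± 0.04 in the Ndufa4 knockout (limma adjusted p = 0.0037). Prdx4, the peroxiredoxin of the endoplasmic reticulum, averaged 221 ± 7.48, 169 ± 9.01 and 222 ± 3.29 TPM in the same genotypes, and fell by 0.39 in the Ndufa4 knockout (SE 0.05; limma adjusted p = 0.0033). The calls of Txn1 and Prdx4 were lost in 0 of 20 alternatives.

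**Figure D4:**
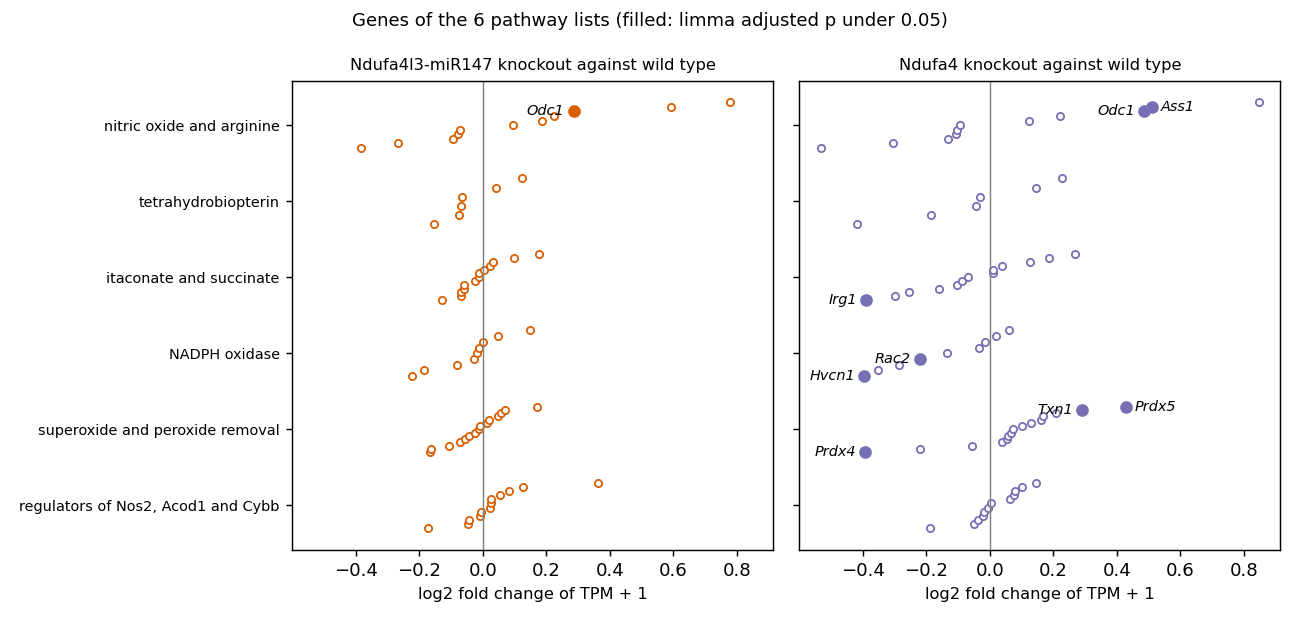
Log2 fold change of TPM + 1 for each tested gene of the 6 pathway lists, for each knockout against wild type, with genes at a limma adjusted p under 0.05 filled and named. The Ndufa4l3-miR147 knockout has Odc1 alone, and the Ndufa4 knockout has 4 that rose and 4 that fell.

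A list of 12 regulators, the receptor, kinases and transcription factors through which interferon-gamma and other signals reach Nos2, Irg1 and Cybb, was tested in full, and limma called 0 in either knockout. In the Ndufa4 knockout 0 had an unadjusted p under 0.05 and in the Ndufa4l3-miR147 knockout 2 had, with medians of -0.0014 and 0.02. Irf1, an interferon-inducible transcription factor, averaged 687 ± 10.6, 657 ± 15.5 and 674 ± 11.2 TPM in the Ndufa4l3-miR147 knockout, the Ndufa4 knockout and wild type. Over all 6 lists, without the members, 57 genes were tested. Of these 3 rose and 3 fell in the Ndufa4 knockout, where 8.59% of all genes were called (2.83% higher, 5.76% lower). In the Ndufa4l3-miR147 knockout 1 rose and 0 fell, where 0.431% of all genes were called (0.243% higher, 0.189% lower).

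Set directly against the Ndufa4 knockout, the Ndufa4l3-miR147 knockout had more Irg1 and less Ass1, 2 of the 9 members, against 3.24% of all genes called (2.2% higher and 1.04% lower, or 245 and 116 genes, against 146 and 148 with median-of-ratios scaling). Irg1 was higher by 0.38 ± 0.08 (limma adjusted p = 0.047) and Ass1 lower, at -0.29 ± 0.06 (limma adjusted p = 0.030). Both calls sat near the threshold: that of Irg1 was lost in 14 of 20 alternatives (limma adjusted p of up to 0.158) and that of Ass1 in 11 (up to 0.133), among them leaving out any 1 wild-type or Ndufa4l3-miR147 knockout library, or Ndufa4 knockout replicate 2, and, for Irg1, Ndufa4 knockout replicate 3. Sod2 was lower in the Ndufa4l3-miR147 knockout without overlap, at -0.31 ± 0.09 (limma adjusted p = 0.099), and passed in 5 of 20 alternatives, among them without Ndufa4 knockout replicate 3 (limma adjusted p = 0.0467). For the other 6 members the differences lay between -0.05 and 0.37, with limma adjusted p from 0.33 to 0.95.

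Libraries without overlap were more common than calls. Against wild type 4 of the 9 members did not overlap in the Ndufa4l3-miR147 knockout (Slc7a2 and Ass1 higher, Ncf1 and Sod2 lower) and 5 in the Ndufa4 knockout (Ass1 and Sod2 higher, Nos2, Irg1 and Ncf1 lower), where 23.9% (11.9% higher, 12% lower) and 31.1% (9.4% higher, 21.7% lower) of all genes did not. Between the knockouts 4 did not (Irg1 and Ncf1 higher in the Ndufa4l3-miR147 knockout, Sod2 and Ass1 lower), where 25.3% of all genes did not (18.3% higher, 6.98% lower).

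The genes whose log2 values followed a member most closely over the 9 libraries are given as a description, since all values come from the same 9 libraries. For Irg1 they were Mmp12, Tgtp1 and Gm14446, with Pearson r of 0.966, 0.964 and 0.962. Mmp12, a macrophage elastase, was at 71.8 to 77.7 TPM in the Ndufa4l3-miR147 knockout, 47.5 to 58.3 TPM in the Ndufa4 knockout and 72.8 to 75.4 TPM in wild type. Tgtp1, an interferon-inducible GTPase, was at 109.8 to 119.5 TPM, 77.5 to 104 TPM and 113 to 121 TPM in the same genotypes. For Cybb they were Srcap, Eif4ebp2 and Zfp236, with r of 0.990, 0.988 and 0.985 over 9 libraries, and of 0.887, 0.837 and 0.791 over the 8 without Ndufa4 knockout replicate 3. For Nos2 they were Rnaseh2b, Dnajb5 and Paqr7, with r of 0.940, 0.927 and 0.914.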

How the data were processed

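The authors deposited a single TPM table covering 29763 named genes. Its 1 unnamed entry (up to 0.003% per library) was dropped. The submitters' processing notes list kallisto, DESeq2, edgeR, mm10 and GRCm39, without roles or versions. Library totals were 913474 to 921678 TPM. TPM keep no depth, so the depth is unknown, and a share of a fixed total moves when abundant genes move.

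A gene was tested if 3 or more libraries reached 1 TPM (11133 genes, all 9 members among them). Values of log2(TPM + 1) were fitted with limma 3.58.1 in R 4.3.3, with 1 mean per genotype over 9 libraries, an intensity trend, two-sided tests and Benjamini-Hochberg adjustment over all genes. The procedure was tested on simulated data. Annotation is from GENCODE M21 (GRCm38), and promoters, matched for 6 of the 9 members, from RefSeq. The genes named were the members, list genes called against wild type (or the 2 most abundant of a list with none), and the closest patterns to Nos2, Irg1 and Cybb among genes with a mean of at least 5 TPM. Asl, Slc7a1, Sdha, Suclg2, Clec9a, Xcr1, Lyz2, Cd14 and Mertk were chosen after their values were seen. One gene that this rule names is not reported here. Of 118 list genes 117 were found, 2 by another symbol. Members and lists were chosen with earlier results of these data known. In all 20 alternatives were run.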

Additional observations from a re-analysis of the deposited data

How the results depend on the processing

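For the Ndufa4l3-miR147 knockout against wild type, the 48 genes called became 158 with the length and GC trend removed, 30 with no intensity trend, 538 with array weights, 24 with the replicate block and 306 in a fit to the 6 libraries compared (13 to 198 leaving out 1 library). Its 0 members called became 1, with the trend removed, and 2, with array weights or 6 libraries (0 to 1 leaving out 1, the 1 being without Ndufa4 knockout replicate 3). Its 1 list gene became 0 with median-of-ratios scaling, no intensity trend or the block, 2 with the trend removed, 7 with array weights and 4 with 6 libraries (0 to 2). For the Ndufa4 knockout against wild type, 956 genes became 1684 with the trend removed, 3045 with array weights and 238 with 6 libraries (266 to 1586), and were 661 with the block. Its 2 members became 4 with quantile normalization or the trend removed, 5 with array weights and 1 with 6 libraries (1 to 4). Its 8 list genes became 15 with the trend removed, 23 with array weights and 5 with 6 libraries (4 to 13). Between the knockouts, 361 genes became 839 with the trend removed, 1726 with array weights, 162 with the block and 64 with 6 libraries (82 to 740). The 2 members became 1 with no filter and 0 with no intensity trend, the block or 6 libraries (0 to 2). The 5 list genes became 10 with the trend removed, 3 with no intensity trend, 18 with array weights, 2 with the block and 0 with 6 libraries (1 to 10). The cause was not tested.

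Ass1 in the Ndufa4 knockout was called in all 20 alternatives. Signs turned only among members not called. In the Ndufa4l3-miR147 knockout against wild type, Irg1 was 0.0004 with array weights (-0.0662 to 0.0151 leaving out 1 library, 0.0136 among them), Cybb -0.0026 with quantile normalization and -0.0088 with the trend removed (-0.0377 to 0.0402 leaving out 1 library, -0.0371 and -0.001 among them), and Cyba ran from -0.0628 to 0.0174 leaving out 1 library. In the Ndufa4 knockout against wild type, Cybb was 0.0437 with array weights, and Cyba -0.0684 with quantile normalization, -0.0176 with the trend removed and -0.0013 with array weights; leaving out 1 library, Cyba ran from -0.1009 to 0.1334 and Ncf4 from -0.0347 to 0.1544, each lowest without Ndufa4 knockout replicate 3. Between the knockouts, Cybb was -0.0249 with array weights, Cyba 0.0353 with quantile normalization and 0.0123 with the trend removed, Ncf1 -0.0204 with median-of-ratios scaling, and Ncf4 0.0072 with the trend removed and 0.0018 with array weights; leaving out 1 library, Cyba ran from -0.1601 to 0.0742 and Ncf4 from -0.1064 to 0.0826, each highest without Ndufa4 knockout replicate 3. Deviations from genotype means correlated at -0.138 to 0.179 between same-numbered libraries and at -0.164 to 0.132 between others. These correlations cannot decide whether same-numbered libraries were paired, so the block may be no pairing. Nos2 gave no value with the filter of 5 TPM. TPM carry no depth, which leaves the precision of low genes such as Nos2 unknown.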
